A study of Mus musculus with 15 samples.

Results

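The genes of the mitochondrial ribosome were followed in mouse embryonic stem cells (ESC) that lack Hmga1 or express Hmga proteins from a transgene. A gene was a member if its symbol begins with Mrps or Mrpl followed by a digit, which took 77 of the 21662 genes counted, 29 named for the small subunit (Mrps) and 48 named for the large subunit (Mrpl). All 77 had enough counts to be tested in both experiments. RNA was measured by RNA-seq after removal of ribosomal RNA in 15 samples that form 6 groups. The KO experiment held wild-type cells (WT, 3 samples) and cells with a frameshift mutation of Hmga1 (Hmga1 KO, 2 samples). It also held Hmga1 KO cells given biotin-tagged Hmga1 (Hmga1 add-back, 2 samples) or biotin-tagged Hmga2 (Hmga2 add-back, 2 samples) under the CAG promoter. The labels call both add-backs a rescue, and the paper states that ESC do not express Hmga2. A separate experiment compared wild-type cells (WT 2, 3 samples) with cells from which the whole coding sequence of Hmga1 had been removed (full deletion, 3 samples). The cells are of the 159 line, of mixed 129Sv-C57Bl/6 background, were grown in serum with LIF on feeder cells or gelatine, and derive from a parental line that makes the BirA-V5 biotin ligase. Each mutant genotype is 1 line, so that genotype and clone cannot be told apart. Samples of a group are cultures of the same line harvested on different days, and p-values measure the spread between such cultures.

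Mitochondria translate the few messenger RNAs of their own genome, which encode core subunits of the respiratory chain, on a ribosome whose RNAs are made in the organelle and whose proteins are all encoded in the nucleus, made in the cytosol and imported. Many of these proteins have a bacterial counterpart, and others were added in the mitochondrial lineage, where the ribosome became richer in protein. Some names do not match the place of the protein: Mrps30 and Mrps18a were named for the small subunit and sit in the large one, and Mrps36 works in the 2-oxoglutarate dehydrogenase complex. Because both subunits need their proteins in fixed proportion, the family is a case in which coordinated levels of many housekeeping transcripts can be read. Hmga1 and Hmga2 are small chromatin proteins that bind AT-rich DNA through AT-hooks.

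The samples held between 13465399 and 34952136 counts. Batch a of the KO experiment had 30742898 to 34952136 counts and batch b 13465399 to 14585417, so that batch and depth cannot be told apart. Hmga1 was at 464, 276 and 221 CPM (counts relative to the TMM-scaled library size) in WT a, b and c, at 217 and 96.1 CPM in Hmga1 KO, at 184 and 123 CPM in the Hmga1 add-back and at 138 and 101 CPM in the Hmga2 add-back. A frameshift need not remove the transcript. The Hmga1 add-back was below the Hmga1 KO in batch a and above it in batch b. Whether the tagged cDNA is counted in the annotated exons of Hmga1 was not tested, so these values do not check the add-back. In the full-deletion experiment Hmga1 was at 310 to 357 CPM in WT 2 and at 10.9 to 12.3 CPM in the full deletion. Hmga2 was at 249 and 222 CPM in the Hmga2 add-back and at no more than 23.8 CPM in any other sample. The 12 pluripotency genes checked were present in every sample and summed to 5002 to 8527 CPM, whereas 10 genes of feeder fibroblasts summed to 7.11 to 25.8 CPM, with the defining Dcn, Lum and Postn at or near 0. Most of that sum came from Col5a1 (4.66 to 12.18 CPM) and Thy1 (1.78 to 11.7 CPM). The sum was highest in the Hmga1 and Hmga2 add-back samples of batch a (25.1 and 25.8 CPM). There Col5a1 was at 11.75 and 12.03 CPM and Thy1 at 10.86 and 11.7 CPM, against 5.598 and 6.009 CPM in WT a. The 10 differentiation genes summed to 82.9, 47.1 and 64.5 CPM in WT and to 24.8 to 35.2 CPM in Hmga1 KO and both add-backs, so that all comparisons with WT in the KO experiment go with a lower sum, and to 27.6 to 37.7 CPM in WT 2 and 31.0 to 34.8 CPM in the full deletion. The part of either sum in the results below was not tested. The library WT 2 b stood apart: its TMM factor, which corrects for a few genes that take up a large share of a library, was 0.752 against 0.986 and 0.992 in its partners, and its 10 most abundant genes held 8.78% of all counts against 4.67 to 5.5% in the other samples. Fold changes of the full-deletion experiment are therefore given with and without it.

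Promoter windows of the same length, 250 bases before to 50 bases after the annotated start, were found in RefSeq for 68 members (74 windows). They were searched on both strands for 5 short motifs of factors that act at housekeeping promoters. The share of the members' windows that hold each is given beside the share of all 32851 mouse windows. A gene with several windows counts more than once. The letters CCGGAAG, recognised by ETS factors such as GABP, a regulator of nuclear genes for mitochondria, were in 11 of 27 Mrps windows (40.7%) and 14 of 47 Mrpl windows (29.8%), and in 8.86% of all windows and 16.5% of the windows of genes tested here. The letters GCGCATGCG of NRF1, another such regulator, were in 3.70% of Mrps and 12.8% of Mrpl windows, against 1.75% of all windows and 3.5% of those of genes tested. AAGATGGC, bound by YY1, was in 22.2% and 12.8% against 2.75% and 4.16%. The GC box GGGCGG was in 66.7% and 44.7%, against 35.7% of all windows and 62.7% of those of genes tested, and the E-box CACGTG in 3.70% and 12.8% against 7.15% and 10%. The ETS and YY1 letters were thus in a larger share of windows of both subunits than of all genes tested. So were the NRF1 letters, but in Mrps this was 1 of 27 windows (3.70% against 3.5%). The GC box was above that share only in Mrps windows (66.7% against 62.7%) and the E-box only in Mrpl windows (12.8% against 10%). The Mrpl genes with an E-box were Mrpl2, Mrpl20, Mrpl36 and Mrpl37, some counted with several windows.

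In the bases before the start, 2 members held 3 kinds of motif, 14 held 2 kinds and 21 held none. The 2 with the most kinds are shown, with the Mrps promoter that had the most matches, in 5′ to 3′ direction on the strand of the gene and with the matched letters in capitals (build GRCm38.p6). In Mrpl17 (chr7:105811088-105811337, minus strand) a GC box on the other strand runs into the ETS letters near the beginning, and the NRF1 letters lie next to the start. In Mrpl32 (chr13:14613038-14613287, minus strand) the YY1 letters are read on the other strand, and the first NRF1 match overlaps its own reverse complement. Mrps18b (chr17:35916441-35916690, minus strand) carries NRF1 letters and GC boxes.
Mrpl17: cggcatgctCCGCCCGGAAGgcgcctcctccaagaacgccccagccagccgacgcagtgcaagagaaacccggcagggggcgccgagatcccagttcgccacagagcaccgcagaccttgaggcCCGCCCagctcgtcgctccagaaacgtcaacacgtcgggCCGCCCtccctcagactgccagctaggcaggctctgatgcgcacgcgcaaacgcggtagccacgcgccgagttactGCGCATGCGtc
Mrpl32: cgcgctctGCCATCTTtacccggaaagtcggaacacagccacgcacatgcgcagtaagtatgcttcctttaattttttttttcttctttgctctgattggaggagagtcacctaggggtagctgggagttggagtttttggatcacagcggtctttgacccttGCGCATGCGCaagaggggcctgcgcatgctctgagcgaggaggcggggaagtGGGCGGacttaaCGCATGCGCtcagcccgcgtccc
Mrps18b: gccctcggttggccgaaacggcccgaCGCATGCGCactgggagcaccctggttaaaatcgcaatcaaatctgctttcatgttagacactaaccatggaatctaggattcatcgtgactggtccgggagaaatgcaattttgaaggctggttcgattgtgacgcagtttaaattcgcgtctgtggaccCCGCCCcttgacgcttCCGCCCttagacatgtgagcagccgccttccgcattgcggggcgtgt

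Per length of exon, members were well above the typical expressed gene. In WT the median was 32.1 CPM per kb for Mrps and 37.8 CPM per kb for Mrpl, against 6.49 CPM per kb over all genes tested, and the median Mrps and Mrpl gene lay at percentile 82.4 and 84.7. The highest Mrps levels in WT were those of Mrps21 (94.9 ± 20.2 CPM per kb, SD, n = 3), Mrps30 (75.6 ± 18.9) and Mrps35 (64.2 ± 10.3), and the lowest those of Mrps36 (16.6 ± 0.64), Mrps15 (15.1 ± 1.52) and Mrps33 (14.9 ± 2.10). Neighbours in this order were closer to each other than the spread between samples. Among Mrpl genes Mrpl18, whose bacterial counterpart binds 5S ribosomal RNA, was highest (153.5 ± 40.3 CPM per kb), followed by Mrpl39 (116.9 ± 17.1) and Mrpl40 (106.0 ± 14.9). Mrpl57 (7.82 ± 1.24 CPM per kb), Mrpl33 (7.77 ± 1.97) and Mrpl13 (7.28 ± 1.33) were lowest. Lengths count every annotated exon of a gene, 6652 bases for Mrpl13 and 2480 for Mrpl33, so that a gene with long exons it seldom uses is placed too low. Mrpl13 and Mrpl18 held the lowest and highest place among Mrpl genes in WT, in Hmga1 KO and in both add-backs. In the full-deletion experiment, which was normalized separately, the highest Mrpl gene was Mrpl16 in WT 2 (182.8 ± 93.5 CPM per kb; Mrpl18 in WT 2 a and c alone) and Mrpl12 in the full deletion (124.4 ± 8.80), and Mrpl33 was lowest in both.

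**Figure D1:**
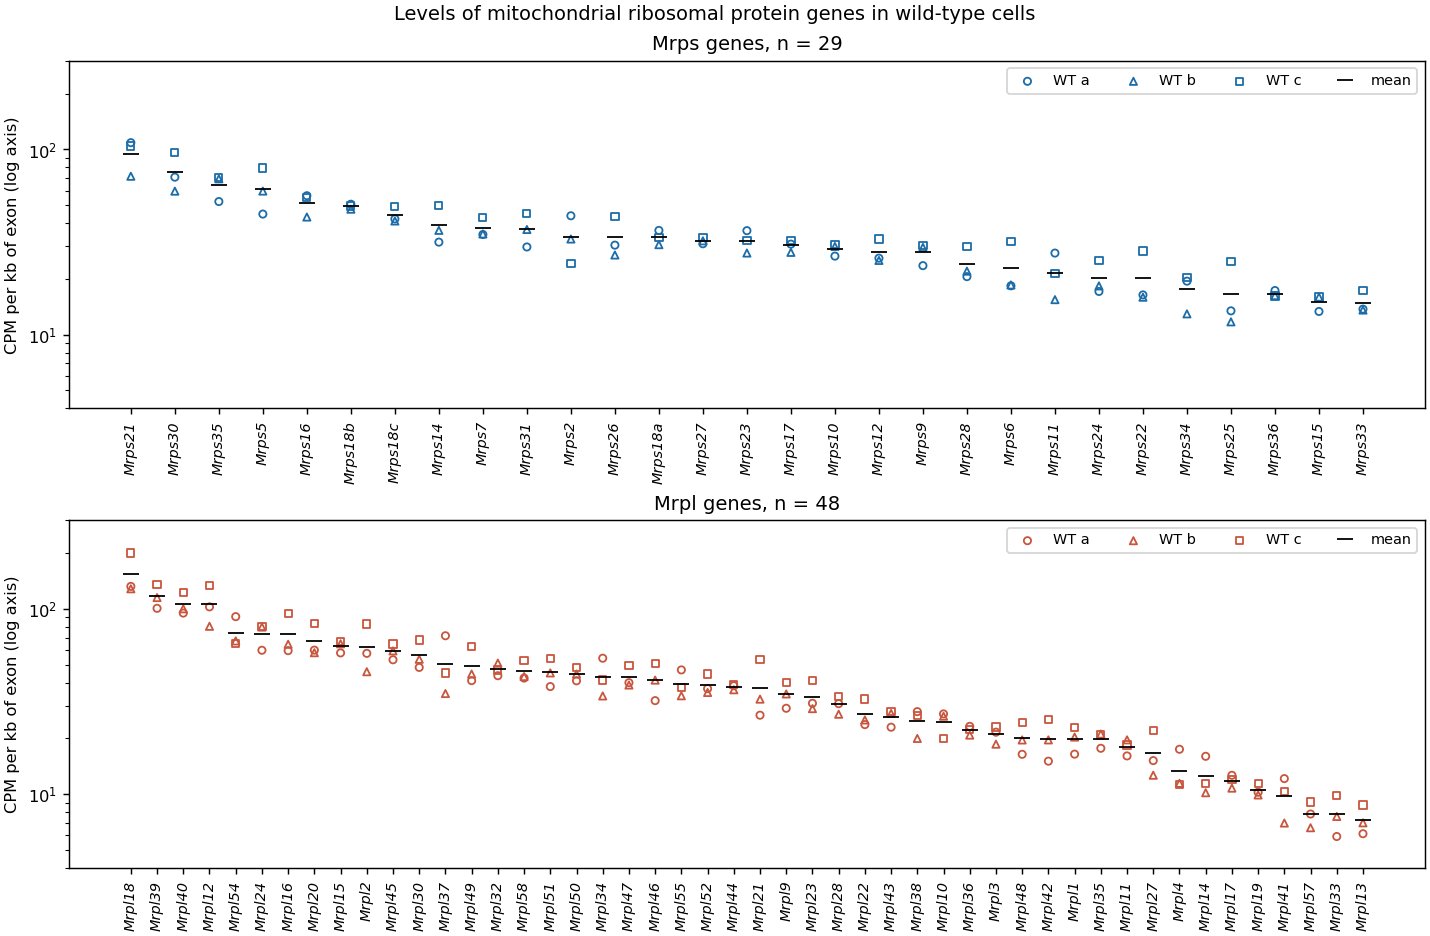
Level of each member in the 3 WT samples of the KO experiment, in CPM per kb of annotated exon on a log axis, with Mrps genes above and Mrpl genes below, ordered by mean (black bar). Levels run from 14.9 to 94.9 CPM per kb among Mrps and from 7.28 to 153.5 among Mrpl genes.

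The Mrps sum overlapped between WT and Hmga1 KO, and both sums were lower in the full deletion than in WT 2 on the TMM-normalized scale. There the Mrpl sum of Hmga1 KO lay just below that of WT. As a share of all counts it overlapped, at 0.274, 0.256 and 0.300% in WT and 0.262 and 0.259% in Hmga1 KO. The 29 Mrps genes took 0.129 to 0.172% and the 48 Mrpl genes 0.208 to 0.300% of all counts. On the TMM-normalized scale the Mrps sum was 1399, 1372 and 1743 CPM in WT a, b and c, 1444 and 1355 CPM in Hmga1 KO, 1269 and 1441 CPM in the Hmga1 add-back and 1252 and 1324 CPM in the Hmga2 add-back. The Mrpl sum was 2667, 2676 and 3226 CPM in WT, 2572 and 2655 CPM in Hmga1 KO, 2178 and 2799 CPM in the Hmga1 add-back and 2182 and 2557 CPM in the Hmga2 add-back. Within the KO experiment WT c, the only sample of its batch, was highest for both subunits, and the add-back samples of batch a were lowest for Mrpl. In the full-deletion experiment the Mrps sum was 1610, 2285 and 1660 CPM in WT 2 and 1344, 1447 and 1388 CPM in the full deletion, and the groups did not overlap. The Mrpl sum was 2738, 2769 and 2617 CPM in WT 2 and 2353, 2483 and 2415 CPM in the full deletion, again without overlap. The means were 1852 and 1393 CPM for Mrps and 2708 and 2417 CPM for Mrpl. Abundant genes weigh most in these sums. Mrps25, Mrps30, Mrps5 and Mrps22, the Mrps genes with the highest mean in WT 2, were at 298, 233, 206 and 190 CPM there. In the full deletion they were at 183, 126, 113 and 96.7 CPM. By gene, 16 of 29 Mrps and 25 of 48 Mrpl genes had a positive log2 fold change, against 6994 of 13098 genes tested. As a share of all counts the Mrps groups stayed apart (0.160, 0.172 and 0.164% in WT 2, 0.150, 0.159 and 0.154% in the full deletion), whereas the Mrpl groups overlapped (0.272, 0.208 and 0.258% against 0.262, 0.273 and 0.268%). The ratio of the Mrpl to the Mrps sum lay between 1.58 and 1.96 in all samples but WT 2 b, where it was 1.21.

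**Figure D2:**
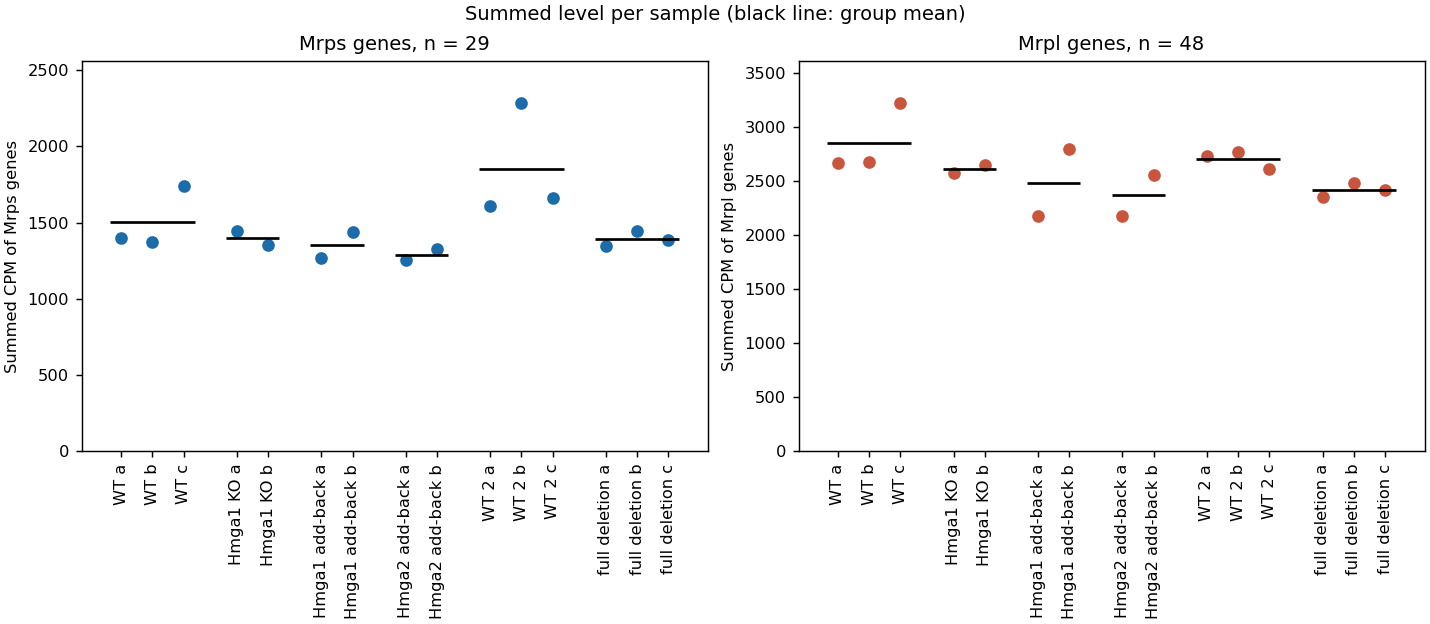
TMM-normalized CPM summed over the 29 Mrps genes (left) and the 48 Mrpl genes (right) in each of the 15 samples, with the mean of each group as a black line and axes that start at 0. WT 2 b stands above its partners for Mrps (2285 CPM), and the full-deletion samples (2353 to 2483 CPM for Mrpl) lie below WT 2 on this scale.

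Loss of Hmga1 protein by frameshift left the family without a called gene. Between Hmga1 KO and WT, the log2 fold changes of the 77 members ran from -0.39 to 0.37, and their medians were 0.02 for Mrps, -0.04 for Mrpl and -0.01 for all genes tested. By the quasi-likelihood test of edgeR, adjusted after Benjamini-Hochberg over all genes tested, 0 members passed the study's thresholds (adjusted p under 0.01 and at least a 2-fold change, as did 0.0216% of all genes) and 0 passed an adjusted p under 0.05 (0.0647% of all genes). At an unadjusted p under 0.05 the count was 0 by edgeR, 0 by DESeq2 and 1 by limma-trend, where edgeR had 12.6% of all genes. All 77 members lay between the 5th and the 95th percentile of all genes, -0.60 and 0.87.

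The members with the smallest p-values illustrate the size of the spread. Mrpl2, whose bacterial counterpart lies at the peptidyl transferase centre, was at 58.2, 46.3 and 83.9 CPM in WT and at 69.2 and 54.5 CPM in Hmga1 KO. In each of the batches a and b the KO was higher, by 0.25 and 0.23 (log2). The groups overlapped only across batches. With batch in the model of edgeR the fold change was 0.24 ± 0.11 (log2, SE), with an adjusted p of 0.398. Mrpl23, a protein of the exit tunnel region, was at 18, 16.8 and 23.8 CPM in WT and at 27.1 and 18.5 CPM in Hmga1 KO (0.37 ± 0.17, adjusted p = 0.425). Mrps34, of the mitochondria-specific proteins, was at 26.9, 17.9 and 28.2 CPM in WT and at 17.7 and 16.7 CPM in Hmga1 KO (-0.39 ± 0.21, adjusted p = 0.481). Its groups did not overlap, but the difference rested on WT a, without which it was 0.01 with WT b as the only WT sample of the contrast, and its exons overlap those of Nme3 on the same strand, so reads of the pair can be shared. The other members named by the same rule were Mrps18b (-0.28 ± 0.18), Mrps28 (0.23 ± 0.15) and Mrpl57 (0.30 ± 0.16), with adjusted p-values from 0.480 to 0.571.

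Expression of tagged Hmga2 in the KO went with slightly lower values across most of the family. Between the Hmga2 add-back and Hmga1 KO, 23 of 29 Mrps and 42 of 48 Mrpl genes had a negative log2 fold change, against 6934 of the 13912 genes tested. The medians were -0.14 for Mrps and -0.15 for Mrpl with a median of 0.00093 over all genes, and they stayed negative with total-count scaling (-0.09 and -0.11, all genes 0.05). In batch a the medians were -0.24 and -0.23 and in batch b -0.04 and -0.08, and 17 Mrps (58.6%) and 30 Mrpl genes (62.5%) were lower in both batches, as were 27.0% of all genes. No single gene carried the difference: 0 members passed an adjusted p under 0.05 (0.0144% of all genes) or the study's thresholds (0.00719%) by edgeR, where 2 (2.60%) had an unadjusted p under 0.05, as did 5.09% of all genes (1 by DESeq2 and 2 by limma-trend).

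These 2 were Mrps18c and Mrpl58. Mrps18c, the counterpart of bacterial S18, was at 35.4 and 30.3 CPM in Hmga1 KO and at 27.3 and 23.8 CPM in the Hmga2 add-back, a log2 fold change of -0.36 ± 0.14 with an adjusted p of 0.877. Mrpl58, a peptidyl-tRNA hydrolase that also rescues stalled ribosomes, was at 36.9 and 35.4 CPM in Hmga1 KO and at 24.6 and 31.0 CPM in the Hmga2 add-back (-0.40 ± 0.17, adjusted p = 0.877). Neither pair of groups overlapped, and both genes were lower in each batch, as were 27.0% of all genes. Both were named for their small p-values in this comparison, so such separation adds nothing to them. Groups without overlap were not counted over all genes here. Mrpl12, which also binds the mitochondrial RNA polymerase, was at 90.3 and 73.7 CPM in Hmga1 KO and at 66.7 and 65.4 CPM in the Hmga2 add-back (-0.31 ± 0.14). Mrps35, Mrps26 and Mrpl40, also named by their p-values, were at -0.26, -0.31 and -0.33.

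With Hmga1 returned, the 2 batches went apart. Between the Hmga1 add-back and Hmga1 KO the medians were -0.07 for Mrps and -0.06 for Mrpl (0.01 over all genes), but -0.20 for both subunits in batch a and 0.11 and 0.08 in batch b. Only 5 Mrps and 12 Mrpl genes were lower in both batches, 17.2% and 25.0% against 21.9% of all genes. Here 0 members passed an adjusted p under 0.05 or the study's thresholds by edgeR, as did 0% of all genes by either rule, and 0 had an unadjusted p under 0.05 by edgeR (2.8% of all genes), DESeq2 or limma-trend. Mrpl14 (-0.43 ± 0.22), Mrpl58 (-0.35 ± 0.17), Mrpl38 (-0.23 ± 0.15), Mrps28 (-0.22 ± 0.15), Mrps2 (-0.18 ± 0.13) and Mrps21 (0.19 ± 0.15) had the smallest p-values, all with an adjusted p of 0.9999.

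Against WT, with which the comparisons above share samples, most Mrpl genes had negative values in both add-backs. The Mrpl median was -0.12 with Hmga1 returned and -0.15 with Hmga2 returned, and 35 and 40 of the 48 genes were negative. The Mrps medians were -0.02 and -0.05 and turned to 0.02 and 0.01 with total-count scaling. In batch a 43 of 48 Mrpl genes were lower in the Hmga1 add-back than in WT, and in batch b 33 of 48 were higher, so that the batches disagreed. The Mrpl medians were -0.24 in batch a and 0.08 in batch b, against 0.0050 and 0.0016 over all genes. In both batches 15 Mrpl genes (31.2%) were lower, as were 24.9% of all genes. For the Hmga2 add-back 32 Mrpl (66.7%) and 16 Mrps genes (55.2%) were lower in both batches, as were 31.9% of all genes. By edgeR 0 members passed an adjusted p under 0.05 in either add-back, as did 0.0431% (Hmga1) and 0.165% (Hmga2) of all genes, and 0 passed the study's thresholds (0.0144% and 0.0647%). At an unadjusted p under 0.05 there were 4 members (5.19%) in the Hmga1 add-back, against 13.3% of all genes, and 10 (13%), all lower, in the Hmga2 add-back, against 16.9% (3 and 10 members by DESeq2, 4 and 10 by limma-trend). Of all genes 7.46% were lower at that level in the Hmga2 add-back.

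Mrpl17 and Mrps18b, whose promoters are printed above, were among the 4 members named in each add-back. Mrpl17, a protein near the exit tunnel, was at 88.7, 75.6 and 84 CPM in WT, at 55.7 and 74.8 CPM in the Hmga1 add-back (-0.34 ± 0.16, adjusted p = 0.412) and at 56.2 and 60.4 CPM in the Hmga2 add-back (-0.50 ± 0.16, adjusted p = 0.207). Mrps18b was at 53.3, 50.1 and 52.1 CPM in WT, at 30.2 and 48.2 CPM in the Hmga1 add-back (-0.45 ± 0.18, adjusted p = 0.349) and at 32.3 and 42.0 CPM in the Hmga2 add-back (-0.50 ± 0.18, adjusted p = 0.236). For both genes all add-back samples lay below all WT samples, and batch a differed most. Genes named for small p-values tend to show such separation, and it was not counted over all genes of the KO experiment. Mrps34 was at 14.4 and 15.5 CPM in the Hmga1 add-back and at 13.7 and 16.7 CPM in the Hmga2 add-back, below all WT samples. Its log2 fold change in the Hmga1 add-back was -0.59 ± 0.21 (adjusted p = 0.317). Within batches Mrps34 was at -0.90 and -0.98 in the 2 add-backs of batch a and at -0.21 and -0.10 in those of batch b, so that the difference was far larger in batch a. Mrpl38 (-0.34 in the Hmga1 add-back) and Mrps18c and Mrpl12 (-0.39 each in the Hmga2 add-back) complete the list. Leaving out WT b leaves WT a as the only WT sample of the contrast, with a spread taken from the other groups. It brought Mrps34 past an adjusted p of 0.05 in the Hmga1 add-back (-0.90, adjusted p = 0.0325; 2.53% of all genes were lower then) and Mrps34 (-0.89, 0.0267) and Mrps18b (-0.73, 0.0460) in the Hmga2 add-back (4.21%).

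**Figure D3:**
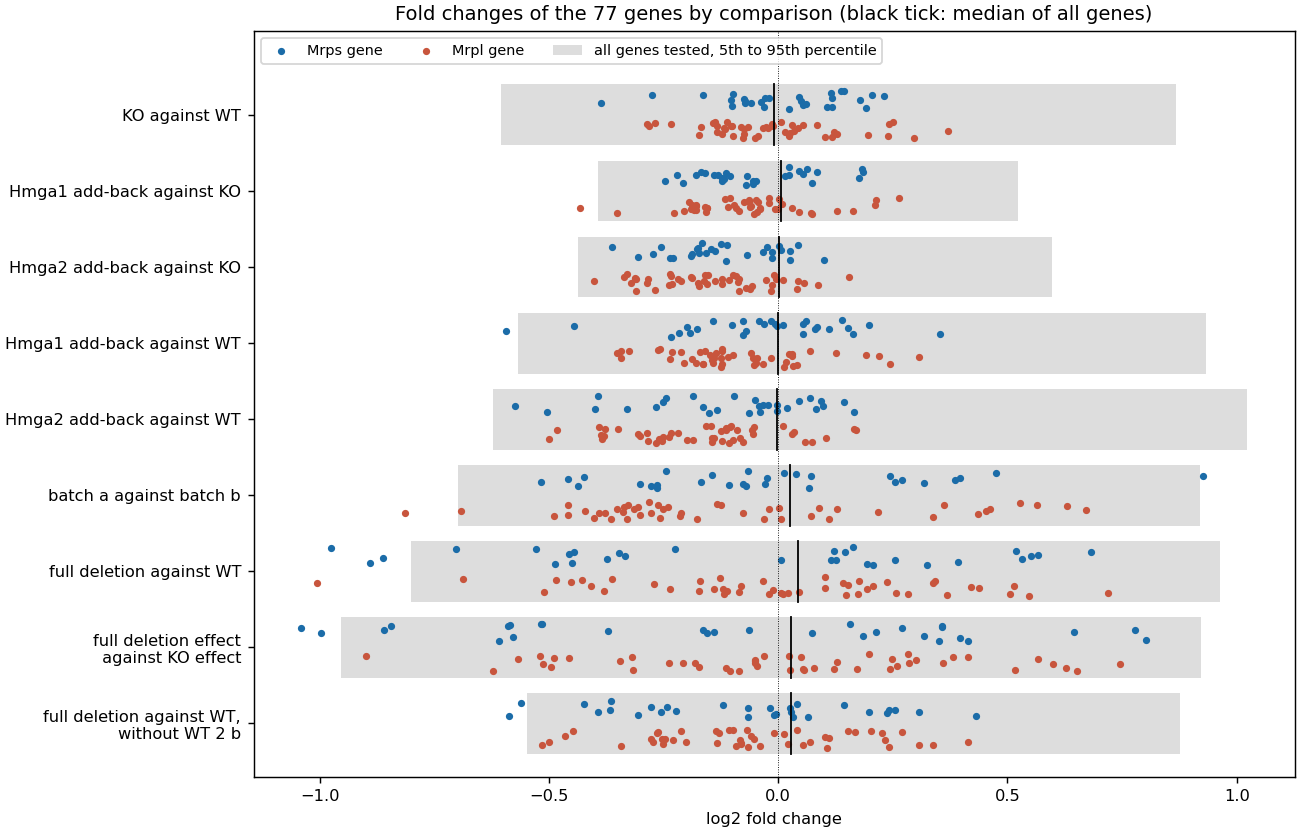
Log2 fold change of each of the 77 members (Mrps blue, Mrpl red) in the 8 comparisons and in the full deletion without WT 2 b. Grey bars span the 5th to the 95th percentile of all genes tested and black ticks mark their median. In the Hmga2 add-back against the KO, 65 of the 77 points lie below 0.

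The strongest separation in the KO experiment was between the batches, as among other genes. With genotype in the model, 35 of 77 members (45.5%) differed between batch a and batch b at an adjusted p under 0.05, as did 35.6% of all genes, and 0 passed the study's thresholds (2.34% of all genes; 48 members, 62.3%, had an unadjusted p under 0.05 where 47% of all genes did, with 45 members and 42.2% of all genes by DESeq2 and 48 and 46.9% by limma-trend). Of the 35, 13 (16.9% of members) were higher in batch a against 17.1% of all genes, and 22 (28.6%) were lower against 18.6%. Leaving out any 1 sample of Hmga1 KO or of an add-back lowered the count to between 13 and 18 members, with 18 to 19.4% of all genes. With total-count scaling the split turned to 18 higher and 11 lower. The medians were -0.07 for Mrps and -0.23 for Mrpl with 0.03 over all genes, and 0.06, -0.10 and 0.15 with total-count scaling, so the Mrps sign depended on the scaling and the position below the typical gene did not.

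Mrps21, a short transcript, showed the clearest batch difference. It was at 47.3, 52.9, 58.6 and 52.6 CPM in the batch a samples of WT, Hmga1 KO, Hmga1 add-back and Hmga2 add-back, and at 31.2, 24.9, 29.2 and 26.1 CPM in the batch b samples, a log2 fold change of 0.93 ± 0.10 (edgeR, adjusted p = 0.00132). Mrpl34 was at 30.6 to 35 CPM in batch a and at 18.9 to 24.4 CPM in batch b (0.63 ± 0.10, adjusted p = 0.00302). In the other direction Mrpl24 was at 65.4 to 70.9 CPM in batch a and at 88.9 to 101.6 CPM in batch b (-0.49 ± 0.08, adjusted p = 0.00332), and Mrps35 at 40.8 to 55.9 and 64.4 to 74.1 CPM (-0.52 ± 0.09, adjusted p = 0.00520). For each of these 4 genes, named for the smallest p-values, the batches did not overlap. Such separation was not counted over all genes. The batch difference followed base composition: across the 77 members its Pearson correlation with the share of A and T in the longest coding transcript was -0.51 (Spearman -0.49), and -0.55 (-0.59) across 13272 genes with a value. The points share the same 8 libraries and the correlations are descriptions. Members with fewer A and T tended to be higher in batch a, the deeper one.

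**Figure D4:**
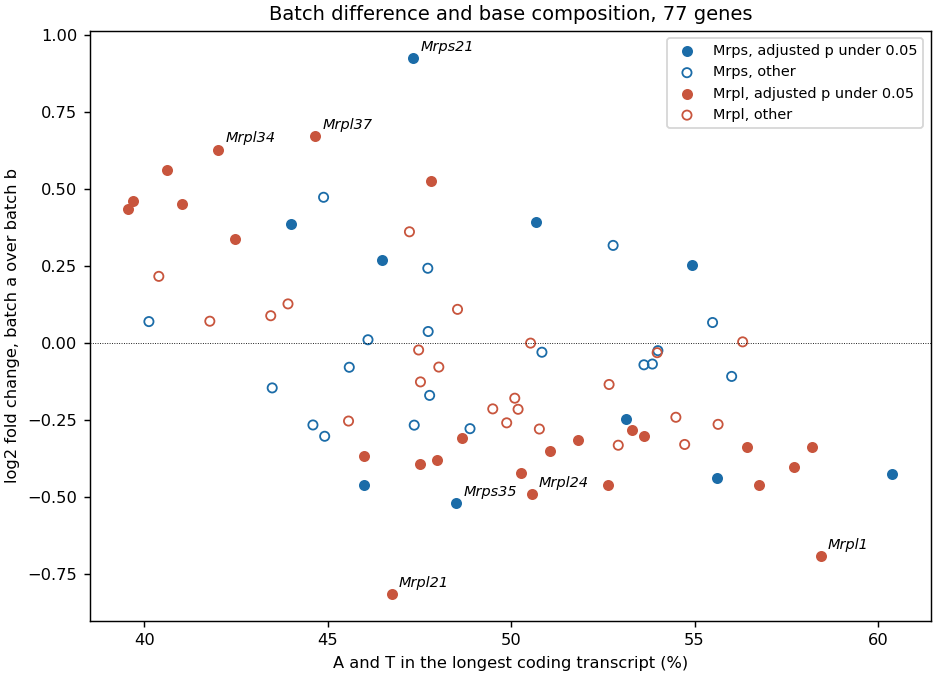
Log2 fold change of batch a over batch b (vertical axis) against the percentage of A and T in the longest coding transcript (horizontal axis) for the 77 members, filled where the adjusted p was under 0.05. Mrps21 is the highest point (0.93) and Mrpl21 the lowest (-0.81), and the cloud falls from left to right (r = -0.51).

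Between the full deletion and WT 2, 2 members (2.60%) differed at an adjusted p under 0.05, as did 8.25% of all genes. Mrpl18 (NCBIM37, chr17:13104215-13109211, minus strand) was at 136, 181 and 125 CPM in WT 2 and at 87.5, 97.5 and 89.2 CPM in the full deletion. All full-deletion samples were lower, and the log2 fold change was -0.69 ± 0.15 (edgeR's quasi-likelihood test, adjusted p = 0.0409). Mrpl23 (chr7:149718704-149726652, plus strand) was at 19.5, 15.8 and 19.5 CPM in WT 2 and at 24.4, 26.4 and 26.9 CPM in the full deletion (0.50 ± 0.12, adjusted p = 0.0496). All full-deletion samples were higher here. Both calls ended when WT 2 c or any 1 of the full-deletion samples was left out (adjusted p from 0.0727 to 0.182 for Mrpl18 and from 0.0777 to 0.197 for Mrpl23), and that of Mrpl23 also without WT 2 a (0.0550). Both also ended with total-count scaling (0.0620 and 0.0624) and with the sample letters as a block (0.0510 and 0.0715), and that of Mrpl23 with DESeq2 size factors (0.0507), with no filter on low counts (0.0530) and with limma-trend (0.0512).

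These 2 calls (2.60% of members) stood beside 8.25% of all genes, with 1 member higher (4.47% of all genes) and 1 lower (3.77%). At the study's thresholds 0 members passed by edgeR (0.0687% of all genes), and 25 (32.5%) had an unadjusted p under 0.05 where 37% of all genes did (24 members by DESeq2, 25 by limma-trend). Of the 25, 5 (6.49%) were higher against 18.4% of all genes and 20 (26%) lower against 18.6%. DESeq2 called 15 members (19.5%) lower, with 14% of all genes. Whether any of these shares differ was not tested. The medians were 0.12 for Mrps, 0.01 for Mrpl and 0.04 for all genes, and with total-count scaling 0.38, 0.28 and 0.32 in the same order, so both subunits shifted with the other genes when the scaling changed. In 16 members all 3 full-deletion samples lay above all WT 2 samples (26.7% of all genes did), and in 23 they lay below (24.6%). With WT 2 a and c alone these were 16 (32.1% of all genes) and 30 members (30.2%).

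The library WT 2 b differed from its partners in members and in other genes. Against the mean of WT 2 a and c, 8 members were at least 2-fold lower there (Mrpl4, Mrpl57, Mrps24, Mrps12, Mrpl36, Mrpl12, Mrpl50 and Mrps18b; 10.4% of members and 4.38% of all genes) and 3 at least 2-fold higher (Mrpl16, Mrps5 and Mrps10; 3.90% and 3.8%), where WT 2 a and c never differed by that much. The median size of the log2 difference was 0.42 over members and 0.38 over all genes, and 0.10 over members between WT 2 a and c. Mrpl16 was at 142, 327 and 147 CPM in WT 2 and at 98.3, 103 and 106 CPM in the full deletion, Mrps5 at 146, 327 and 146 CPM and at 107, 116 and 117 CPM. Mrpl4 was at 23.3, 7.05 and 24.4 CPM in WT 2 and at 31.9, 29.5 and 29.1 CPM in the full deletion. In these 3 genes WT 2 b made the distance between the genotypes larger, without changing its direction. In Mrpl50 it turned the direction: at 84, 37.9 and 78.8 CPM in WT 2 and at 71.3, 78.1 and 77.2 CPM in the full deletion, the log2 fold change was 0.17 with WT 2 b and -0.11 without it. The sign turned in 11 of 77 members, all from positive to negative, with values from -0.11 to -0.0043 without WT 2 b. Such turns were not counted over all genes, so whether they are particular to the family was not tested. The scaling was refitted without WT 2 b.

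Without WT 2 b, 30 of 77 members (39.0%) passed an adjusted p under 0.05 as did 42.5% of all genes. Of these 24 (31.2%) were lower in the full deletion against 22.0% of all genes, and 6 (7.79%) were higher against 20.5%. The medians were then -0.02 for Mrps and -0.07 for Mrpl, with 0.03 over all genes. The largest decreases were those of Mrps30 (-0.59 ± 0.08, adjusted p = 6.72e-06), Mrps22 (-0.56 ± 0.06, 1.30e-06), Mrpl18 (-0.52 ± 0.06, 3.07e-06) and Mrpl16 (-0.50 ± 0.06, 1.55e-06). Mrps30 was at 174 and 203 CPM in WT 2 a and c, at 321 CPM in WT 2 b and at 112, 138 and 127 CPM in the full deletion. Mrps22, a mitochondria-specific protein of the small subunit, was at 139 and 146 CPM in WT 2 a and c, at 285 CPM in WT 2 b and at 91.5, 105 and 93.8 CPM in the full deletion. With WT 2 b both missed the threshold, at -0.89 ± 0.23 (adjusted p = 0.0522) and -0.97 ± 0.27 (0.0601). The 6 higher genes were Mrps18a (0.43), Mrpl23 (0.41), Mrpl4 (0.34), Mrps36 (0.31), Mrps18b (0.26) and Mrps2 (0.20).

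**Figure D5:**
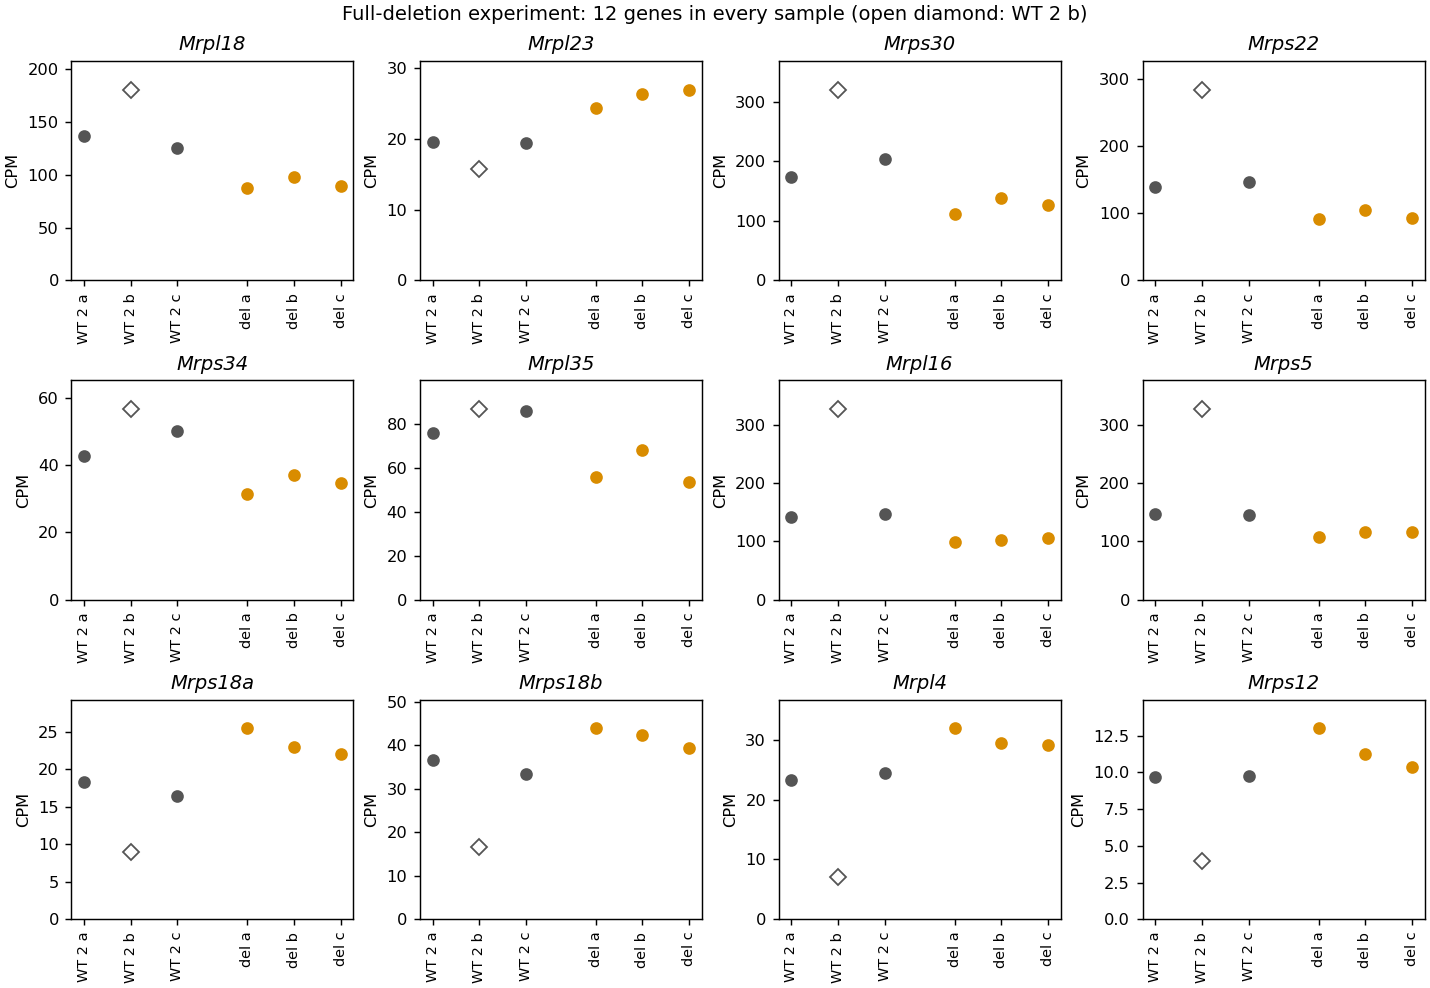
CPM of 12 members in each sample of WT 2 and of the full deletion (grey and orange, with WT 2 b as an open diamond), each axis starting at 0; the first 6 were named by p-value and the others were chosen after their values were seen. In Mrpl18 all full-deletion samples (87.5 to 97.5 CPM) lie below WT 2 (125 to 181 CPM), and in the other panels WT 2 b lies away from WT 2 a and c to a varying degree.

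Mrps34 and Mrpl35 had the next smallest p-values in the full deletion. Mrps34 was at 42.6, 56.6 and 50 CPM in WT 2 and at 31.5, 37.0 and 34.8 CPM in the full deletion (-0.53 ± 0.13, adjusted p = 0.0510), and Mrpl35 at 76.3, 87.0 and 85.9 CPM and at 56.0, 68.2 and 53.8 CPM (-0.48 ± 0.12, adjusted p = 0.0517). Neither had overlapping groups, and both passed without WT 2 b (-0.42, adjusted p = 0.000499, and -0.45, adjusted p = 0.000315). The adjusted p-values of these genes thus lay on both sides of 0.05 for small changes in the samples used.

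The effects of the full deletion and of the frameshift were compared as a difference in a joint fit of 15 samples. By edgeR 0 members differed at an adjusted p under 0.05 (0.375% of all genes) or by the study's thresholds (0.0843%), and 16 (20.8%) had an unadjusted p under 0.05, as did 18.7% of all genes (16 members and 20.7% of all genes by DESeq2, 16 and 17.8% by limma-trend). Mrps22 had a difference of -1.04 ± 0.37, Mrps25 of -0.86 ± 0.29, Mrpl35 of -0.62 ± 0.19 and Mrpl2 of -0.49 ± 0.17, with adjusted p-values from 0.190 to 0.225. Each had a negative fold change in the full deletion and a positive one in the KO. Without WT 2 b these 4 and Mrps5 (-0.53 ± 0.12, adjusted p = 0.0298) passed, 5 members (6.49%) where 4.01% of all genes were lower. Mrps25 was then at -0.58 ± 0.11 (adjusted p = 0.0150). The wild-type samples and the days differed between the experiments, and genotype and experiment cannot be told apart in this difference.

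By role, few members stood out. The 3 paralogs of bacterial S18 are read as separate genes: in WT they were at 33.5 ± 2.98 (Mrps18a), 49.2 ± 1.53 (Mrps18b) and 44.2 ± 4.38 CPM per kb (Mrps18c, SD, n = 3), and in WT 2 at 16.9 ± 5.75, 27.5 ± 10.2 and 10.5 ± 3.60 CPM per kb. In WT 2 a and c alone the means were 20.1, 33.3 and 12.5 CPM per kb. Mrps18c therefore was well below Mrps18b in WT 2 and near it in WT. In the full deletion the log2 fold changes were 0.68 ± 0.25, 0.53 ± 0.27 and 0.39 ± 0.26, with adjusted p-values from 0.0944 to 0.288. Without WT 2 b they were smaller, 0.43 ± 0.10 (adjusted p = 0.00171), 0.26 ± 0.08 (0.0117) and 0.14 ± 0.12 (0.365), and Mrps18a and Mrps18b were called. Mrps18a was at 18.4, 8.95 and 16.4 CPM in WT 2 and at 25.5, 23.0 and 22.0 CPM in the full deletion, with no overlap.

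The proteins of the stalk and its base, Mrpl10, Mrpl11 and Mrpl12, which contact translation factors, were at -0.13, -0.05 and -0.08 in the KO and at 0.26, -0.02 and 0.34 in the full deletion, none called. Leaving out WT 2 b, they were at 0.15 ± 0.09, -0.25 ± 0.09 and 0.05 ± 0.08, and Mrpl11 was called lower (adjusted p = 0.0227). Mrps12, whose bacterial counterpart is the site of streptomycin resistance, was at -0.10 ± 0.18 in the KO and reached 0.55 ± 0.31 in the full deletion (adjusted p = 0.225), and Mrps5 at 0.12 ± 0.11 and -0.86 ± 0.31. The full-deletion values of this pair without WT 2 b were 0.24 ± 0.13 (adjusted p = 0.130) and -0.36 ± 0.06 (5.45e-05). Mrpl3 and Mrps16 were at 0.24 and 0.21 in the full deletion, and Mrpl44, which has a ribonuclease III fold, at -0.38 ± 0.12 (adjusted p = 0.0743). Mrpl3 and Mrps16 were at 0.02 and 0.03 without WT 2 b, and Mrpl44 at -0.27 ± 0.07, which passed (adjusted p = 0.00514). Mrps36 was at 12.9, 7.66 and 13.7 CPM in WT 2 and at 15.5, 16.6 and 17.2 CPM in the full deletion (0.52 ± 0.21, adjusted p = 0.124), and passed without WT 2 b (0.31 ± 0.10, adjusted p = 0.0230). Split by origin, the 48 members with a bacterial counterpart had a median of 0.13 in the full deletion and the 27 mitochondria-specific ones -0.09, where all genes had 0.04. These medians were, without WT 2 b, 0.0063, -0.12 and 0.03. The 2 medians were -0.04 and 0.01 in the KO and -0.14 and -0.12 in the Hmga2 add-back against the KO.

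Of 80 other nuclear genes of mitochondrial translation and its machinery (further ribosome parts, translation factors, assembly factors, transfer RNA synthetases, and genes that express mitochondrial DNA), 0 were called in the KO and 4 (5%) were lower and 0 higher in the full deletion at an adjusted p under 0.05, where 3.77% of all genes were lower and 4.47% higher. Once WT 2 b was left out, 29 (36.2%) were lower and 5 (6.25%) higher, against 22.0% and 20.5% of all genes. Among the 5 was Lars2 (1.24), which rested on 1 library. It was at 176.4, 34.07 and 44.35 CPM in full deletion a, b and c and at 37.25 and 33.29 CPM in WT 2 a and c. Lars2 also reached 1429 CPM in WT c of the KO experiment. The lowest p-values in the full deletion were those of Yars2, the mitochondrial tyrosyl-tRNA synthetase, and Mterf4, an assembly factor of the large subunit. Yars2 was at 87.8, 120 and 94.9 CPM in WT 2 and at 51.4, 58.3 and 53.6 CPM in the full deletion (-0.89 ± 0.14, adjusted p = 0.0229). Mterf4 was at 69.9, 89.6 and 69.5 CPM and at 41.7, 49.5 and 46.2 CPM (-0.73 ± 0.13, adjusted p = 0.0309). Yars2 was, without WT 2 b, at -0.75 ± 0.07 (adjusted p = 1.19e-07) and Mterf4 at -0.60 ± 0.07 (2.42e-06). In the KO the smallest p-values were those of Hars2, the mitochondrial histidyl-tRNA synthetase (-0.39 ± 0.15, adjusted p = 0.363), and Yars2 (-0.33 ± 0.14, adjusted p = 0.392). Between the batches 33 of the 80 were called, 8 (10%) higher and 25 (31.2%) lower in batch a, against 17.1% and 18.6% of all genes. Chchd1, a small-subunit protein (-1.09 ± 0.12), and Slirp, which stabilises mitochondrial messenger RNAs (-1.44 ± 0.09), passed the study's thresholds, 2.5% of the 80 beside 2.34% of all genes.

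Beside the family, the 86 cytosolic ribosomal protein genes had a median of 0.12 in the KO and -0.07 in the Hmga2 add-back against the KO, and the 89 nuclear respiratory chain genes tested had medians of 0.08 and -0.12. The 80 other genes of mitochondrial translation were at -0.07 and -0.04. The lower median in the Hmga2 add-back was thus near that of the respiratory chain genes in size.

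Members are compact genes. Their annotated exons had a median of 1181 (Mrps) and 1200 bases (Mrpl) against 3343 bases over the 13272 tested genes with a position, whereas the share of A and T over the gene, 53.0 and 53.6%, was close to the 53.7% of all genes. A gene on the other strand began within 1000 bases upstream of 7 Mrps (24.1%) and 10 Mrpl genes (20.8%), and of 10.5% of all genes. Mrps12, which starts 171 bases from Sars2, the mitochondrial seryl-tRNA synthetase, is such a pair within mitochondrial translation, and Mrps27 starts 108 bases from Ptcd2. Partners that begin inside the gene were not counted. The members Mrpl46 (chr7:85920122-85928417, minus strand) and Mrps11 (chr7:85928005-85937875, plus strand) overlap at their 5′ ends in this way. Exons of Mrpl33, Mrpl48, Mrps24, Mrps34 and Mrps6 overlap another gene on the same strand, and reads with several equal matches were kept at 1 random place, so the values of these genes and of members with near-identical copies are uncertain. Across members the log2 fold changes of the KO had r = 0.02 with the A and T share of the transcript (all genes -0.11). With that share of the gene they had r = 0.18 (all genes -0.11). Those of the full deletion had r = -0.25 with the transcript share (all genes -0.33, members -0.27 without WT 2 b). With the gene share they had r = -0.30 (all genes -0.33). With log2 exonic length r was -0.16 in the KO (all genes -0.09) and -0.29 in the full deletion (all genes -0.13, members -0.34 without WT 2 b).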

How the data were processed

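Ribosomal RNA-depleted, strand-specific libraries of 15 ESC cultures were sequenced. Per the labels and the study's methods, the authors used bcl2fastq 2.17, trimmed 3 bases, aligned them with Bowtie through QuasR (mm9), placed each multi-mapping read at 1 random match, and deposited raw counts per UCSC known gene on the same strand.

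A minimum of 10 on the mean count left 13912 genes (KO experiment), 13098 (full deletion) and 13050 (joint fit), which were tested with edgeR 4.0.16 in R 4.3.3: TMM scaling, quasi-likelihood test, Benjamini-Hochberg adjustment over all genes tested. CPM uses TMM library sizes. Sample letters of the KO experiment mark batches of library preparation and flow cell, per the study's methods, and entered the model as a term; deviations of same-letter samples correlated at 0.36 to 0.81. WT c alone forms batch c and adds nothing to the contrasts. Calls followed either of a pair of rules, the study's (adjusted p under 0.01 and at least 2-fold) and an adjusted p under 0.05. Within-batch medians and shares used log2 of CPM with a pseudocount of 0.5. Leaving out WT a or WT b leaves 1 WT sample in the KO contrasts, which is assumed to vary like the other groups. DESeq2 1.42.0, limma 3.58.1, other scalings and filters, and leaving out each sample were alternatives. Scripts were tested on simulated data. Gene positions are of NCBIM37 and promoters of GRCm38.p6, from RefSeq.

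Members named were those with the smallest p per comparison (3 per subunit in the KO, both add-back comparisons with the KO and the full deletion, 2 in the others), the 3 highest and lowest per length, a list of known roles, and the 2 other pathway genes with the smallest p; further genes were chosen after their values were seen. Members and lists were chosen with earlier results of these data known. No protein sequences were used here.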

Additional observations from a re-analysis of the deposited data

How the results depend on the processing

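The 0 calls in the KO and in both add-backs against the KO were unchanged under every alternative run, including the fit without the batch block; so were those of the add-backs against WT except when samples were left out (0 to 1 member for Hmga1, 0 to 2 for Hmga2). Calls between the batches ranged from 13 to 40 with a sample left out, the lowest counts on leaving out either Hmga1 add-back sample (13 each), Hmga1 KO a (14), Hmga1 KO b or Hmga2 add-back b (17 each) or Hmga2 add-back a (18); at the study's thresholds there was 1 with total-count scaling and 0 to 1 with a sample left out. The 2 calls of the full deletion became 1 with DESeq2 size factors, 0 with total counts, 4 with no filter on low counts, 16 with DESeq2's Wald test (1 at the study's thresholds), 1 with limma-trend and 1 with the letters as a replicate block. There the letters share only a name (same-letter correlations 0.08, 0.09 and -0.06). With a sample left out the count ran from 0 to 30: 5 without WT 2 a, 30 without WT 2 b, and 0 without WT 2 c or any full-deletion sample, when at most 4 genes were called in all. Both calls, Mrpl18 and Mrpl23, ended with total counts, the replicate block, and without WT 2 c or any full-deletion sample, and that of Mrpl23 also with DESeq2 size factors, no filter, limma-trend and without WT 2 a. The difference between full deletion and KO had 0 to 5 calls with a sample left out, 5 without WT 2 b. Signs turned for Mrps34 in the KO without WT a (0.010; range -0.69 to 0.010 with a sample left out) and for Mrpl2 in the KO without the batch block (-0.022). Of the other values of named genes under an alternative, 710 kept direction and side of the threshold, 25 lost the call and 21 gained one. The causes were not tested. Groups of 2 or 3 cultures and 13465399 to 34952136 counts limit what could be detected, and a missing call does not show that levels were equal.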
